A study of Mus musculus with 30 samples.

Results

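The 10 genes described here, H19, Igf2, Peg3, Snrpn, Kcnq1ot1, Mest, Plagl1, Meg3, Igf2r and Grb10, lie at imprinted loci of the mouse genome and were taken by name. They are 10 of 30751 genes of the same 3 annotation classes (protein-coding, lincRNA and antisense) in GENCODE M21 on mm10. H3K27ac, the acetylation of lysine 27 of histone H3 that marks promoters and enhancers in use, was read from the peaks called in CK1750 and Tnm2, mouse lung adenocarcinoma cell lines. A peak within 2.5 kb of any annotated start site of a gene was counted as a promoter peak, and any peak from 50 kb before to 50 kb after a gene as a peak of its neighbourhood.

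Each line was cultured either in the vehicle DMSO or in 1 µM UNC0638, which blocks G9a and Glp, the enzymes that methylate lysine 9 of histone H3. CK1750 had 3 H3K27ac samples in DMSO and 2 in UNC0638, Tnm2 had 2 in each, and the remaining 21 of the 30 samples (H3K9me2 and input DNA) were not analysed here. The 3 CK1750 DMSO samples bore 2 replicate numbers, and the pair of CK1750 UNC0638 samples bore a single number. The samples of a group share 1 merged list of peaks, so the values below come without a replicate spread and no difference between groups was tested. All groups share the culture medium, both lines were grown in culture, and the genotype of the lines is not given in the sources used here. The study's methods keep cultured cells in the drug for several days with 1 renewal of medium and drug, and name no separate length for ChIP-seq. The CK1750 lists held 27367 peaks (DMSO) and 24601 peaks (UNC0638), the Tnm2 lists 30641 and 18794, and their sequencing depth is unknown. Of 6 epithelial and lung adenocarcinoma markers, 5 had a promoter peak in each of the 4 lists and Epcam had none in any. Of 6 markers of leukocytes, endothelium and fibroblasts, 4 had no promoter peak in any list, Col1a1 had one in the lists other than Tnm2 with UNC0638, and Pecam1 had one in both Tnm2 lists. The part of other cell types in the results below was not tested.

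Imprinted genes are transcribed mainly from the chromosome of 1 parent. They lie in clusters, each governed by a control region that carries DNA methylation on the maternal or the paternal copy, and in several clusters the unmethylated copy of that region is the promoter of a long non-coding RNA that silences its neighbours in cis. In mouse placenta, G9a takes part in the silencing by 2 of these RNAs, Airn and Kcnq1ot1. A peak list does not separate the parental copies, so a peak at an imprinted start site may come from either of them, and fewer marked cells cannot be told apart from less of the mark per cell.

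The promoter sequences of the 3 genes whose start carried a peak are shown first, because the start sites differ in how many CpG dinucleotides they hold. Each is the RefSeq window on GRCm38.p6 from 250 bases before to 50 bases after the gene's start, read 5′ to 3′ along the gene, with every CpG in capitals.
Igf2r (chr17:12769657-12769956, minus strand): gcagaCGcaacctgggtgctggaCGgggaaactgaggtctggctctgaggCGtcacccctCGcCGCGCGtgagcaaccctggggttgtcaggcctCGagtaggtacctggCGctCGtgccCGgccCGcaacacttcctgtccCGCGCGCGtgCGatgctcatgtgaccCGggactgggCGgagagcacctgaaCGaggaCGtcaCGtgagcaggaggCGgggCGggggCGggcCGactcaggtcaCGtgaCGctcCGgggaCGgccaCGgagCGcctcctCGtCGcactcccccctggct
Kcnq1ot1 (chr7:143296498-143296797, minus strand): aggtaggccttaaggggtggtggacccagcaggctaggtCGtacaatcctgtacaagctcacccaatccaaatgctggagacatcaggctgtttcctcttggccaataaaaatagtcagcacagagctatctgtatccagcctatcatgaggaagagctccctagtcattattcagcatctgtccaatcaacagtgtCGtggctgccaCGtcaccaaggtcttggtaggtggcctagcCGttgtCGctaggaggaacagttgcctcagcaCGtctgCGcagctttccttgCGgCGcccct
Snrpn (chr7:60005150-60005449, minus strand): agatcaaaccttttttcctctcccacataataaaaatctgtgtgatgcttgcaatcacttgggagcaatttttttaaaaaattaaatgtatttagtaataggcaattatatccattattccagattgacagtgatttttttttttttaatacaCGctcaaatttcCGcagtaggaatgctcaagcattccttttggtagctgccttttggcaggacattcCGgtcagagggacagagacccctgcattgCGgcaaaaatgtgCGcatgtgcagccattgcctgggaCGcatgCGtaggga
The Igf2r window held 34 CpG, the Kcnq1ot1 window 9 and the Snrpn window 7.

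The next 3 windows belong to genes with no promoter peak in any list. They are shown because Grb10 had the highest ratio of observed to expected CpG of all 19 windows of the members, and because Plagl1 and Peg3 have 1 window each.
Grb10 (chr11:12037371-12037670, minus strand): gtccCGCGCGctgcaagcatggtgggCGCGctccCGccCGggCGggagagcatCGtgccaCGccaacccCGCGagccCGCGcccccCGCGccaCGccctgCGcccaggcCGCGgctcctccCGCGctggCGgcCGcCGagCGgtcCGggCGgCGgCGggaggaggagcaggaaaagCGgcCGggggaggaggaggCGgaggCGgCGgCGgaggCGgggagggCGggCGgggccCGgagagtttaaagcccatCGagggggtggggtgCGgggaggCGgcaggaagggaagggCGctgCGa
Plagl1 (chr10:13090582-13090881, plus strand): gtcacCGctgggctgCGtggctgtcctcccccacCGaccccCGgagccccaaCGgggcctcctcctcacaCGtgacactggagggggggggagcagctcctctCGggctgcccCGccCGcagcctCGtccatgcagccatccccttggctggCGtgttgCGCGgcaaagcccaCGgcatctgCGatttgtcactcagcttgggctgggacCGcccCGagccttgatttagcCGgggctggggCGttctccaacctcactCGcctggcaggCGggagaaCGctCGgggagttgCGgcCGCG
Peg3 (chr7:6730370-6730669, minus strand): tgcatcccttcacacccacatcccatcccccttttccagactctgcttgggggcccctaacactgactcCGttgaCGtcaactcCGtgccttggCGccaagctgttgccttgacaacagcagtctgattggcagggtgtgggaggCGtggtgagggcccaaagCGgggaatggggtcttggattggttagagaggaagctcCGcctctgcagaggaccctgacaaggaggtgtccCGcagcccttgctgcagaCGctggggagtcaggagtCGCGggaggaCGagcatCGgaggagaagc
The Grb10 window held 45 CpG, the Plagl1 window 26 and the Peg3 window 13.

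Promoter H3K27ac was found at 3 of the 10 genes. Igf2r carried it in all 4 lists, Kcnq1ot1 in both CK1750 lists and in Tnm2 with DMSO, and Snrpn in both Tnm2 lists. H19, Igf2, Peg3, Mest, Plagl1, Meg3 and Grb10 had no promoter peak in any list. CK1750 thus had 2 such genes under either treatment, and Tnm2 had 3 under DMSO and 2 under UNC0638. Among all 30751 genes, the share with a promoter peak was 40.9% (DMSO) and 40.1% (UNC0638) in CK1750, and 40.7% (DMSO) and 33.6% (UNC0638) in Tnm2. With UNC0638, no promoter peak of the 10 genes was lost or gained at gene level in CK1750, and in Tnm2 Kcnq1ot1 lost its peak and no gene gained one. With scores of at least 100 only, CK1750 also lost 1 (Kcnq1ot1) and Tnm2 lost 3 (Kcnq1ot1, Snrpn and Igf2r).

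**Figure D1:**
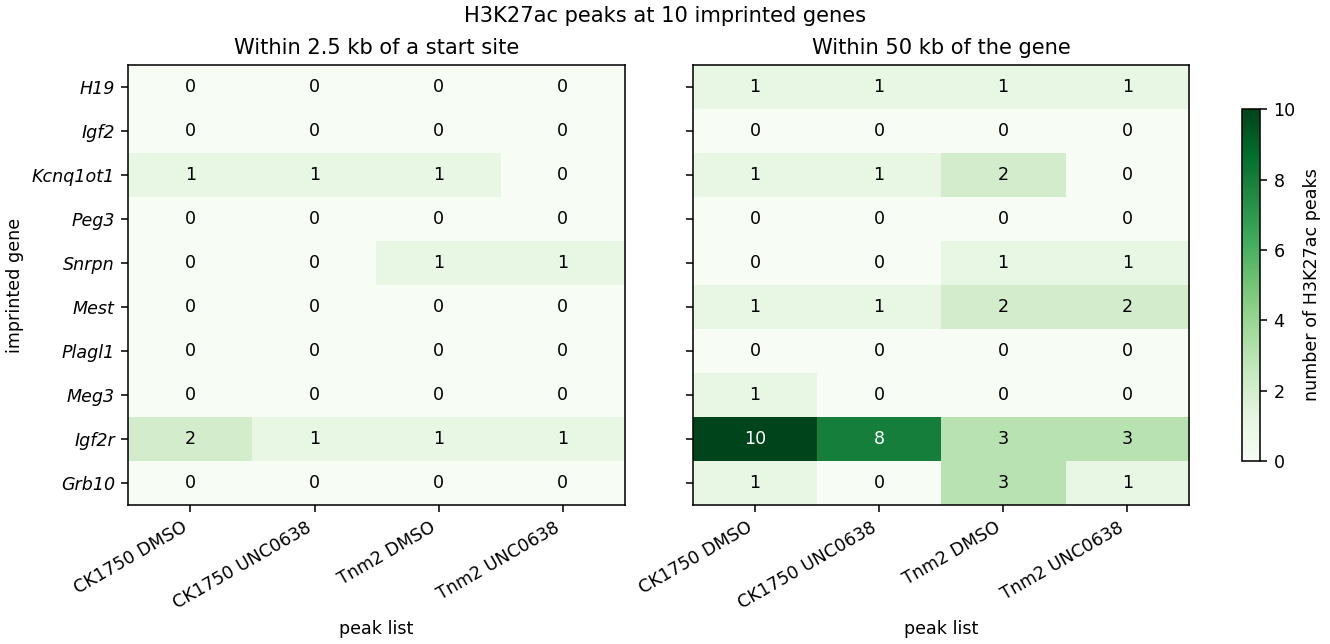
Number of H3K27ac peaks within 2.5 kb of a start site (left) and within 50 kb of the gene (right) for the 10 imprinted genes (rows) in the 4 peak lists (columns), 1 pooled list per column. Igf2r had 10 and 8 neighbourhood peaks in CK1750, the most there, and 3 and 3 in Tnm2, where Grb10 also had 3 with DMSO. Igf2, Peg3 and Plagl1 had 0 in every list.

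Igf2r encodes the receptor that carries the growth factor IGF2 to the lysosome, and in the mouse it is transcribed mainly from the maternal copy. Its main start lies at chr17:12769664 on the minus strand, and the gene spans chr17:12682406-12769664. A peak covered this start in every list. In CK1750 with DMSO it lay at chr17:12768913-12770240 (1328 bp) with a score of 210.72. The score is minus 10 times the log10 of the P value given by the peak caller, lists end at a score of 50, and scores rank peaks within a list only. This score was higher than 58.4% of the peaks in its list. In CK1750 with UNC0638 the peak lay at chr17:12768892-12769764 (873 bp, score 110.69, above 35.6% of its list). In Tnm2 it lay at chr17:12769002-12770341 with DMSO (1340 bp, score 250.94, above 67.3% of its list) and at chr17:12768927-12769676 with UNC0638 (750 bp, score 94.6, above 39.4% of its list). The start was thus marked in both lines and both treatments. The lists differ in length, so ranks were not compared between them. CK1750 with DMSO held another promoter peak by the 2.5 kb window, at chr17:12752284-12752858 (score 54.64), 1.48 kb from an alternative start at chr17:12750800 and without an overlapping peak under UNC0638.

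Airn, the paternally transcribed antisense RNA that silences Igf2r, starts inside an Igf2r intron at 28.35 kb from the Igf2r start and runs out over it. Its start carried H3K27ac in CK1750 and not in Tnm2. In CK1750 with DMSO 3 peaks lay in its promoter window, at chr17:12741294-12742435 over the start (score 156.43), chr17:12740481-12740822 (score 61.52) and chr17:12739504-12740042 (score 90.68). In CK1750 with UNC0638 1 broad peak of 2505 bp covered the start, at chr17:12740210-12742714, with a score of 291.9 that was above 62.9% of its list. The highest DMSO peak at Airn was above 50.6% of its list. No peak lay in the Airn promoter window in either Tnm2 list. Among all genes, 529 of 30751 (1.72%) had a promoter peak in both CK1750 lists and in neither Tnm2 list. Airn was singled out among the cluster genes by this pattern, so the share does not measure how unusual it is.

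An intronic Igf2r peak farther along the gene was present in 3 of the 4 lists. It lay at chr17:12723656-12725446 in CK1750 with DMSO (score 200.59), at chr17:12723500-12725533 in CK1750 with UNC0638 (score 332.8) and at chr17:12723793-12725445 in Tnm2 with DMSO (score 281.6). Tnm2 with UNC0638 had no peak there. In the decile of Tnm2 DMSO peaks to which it belonged, with scores from 281.26 to 450.78, 5.03% of peaks had no overlapping UNC0638 peak. Its score lay at the lower end of that decile, and in the decile below (191.91 to 281.21) 19.1% had none. The Igf2r intronic peak was singled out with its loss known, so neither share measures how unusual the loss is. Neighbourhood peaks of the decile from 281.26 to 450.78 at Snrpn (288.48), at Mrpl23 near H19 (339.97) and upstream of Mest (367.87) did have one.

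Upstream of Igf2r, near the start of the transcript CT030636.1 at -22.0 kb, each list had at least 1 peak. CK1750 had 2 there with DMSO (scores 85.25 and 97.39) and 3 with UNC0638 (scores 108.9, 124.15 and 146.37), of which the one at chr17:12790019-12790934 overlapped no DMSO peak. Tnm2 had 1 with DMSO (score 162.58) and 1 with UNC0638 (score 56.35). Over the whole neighbourhood the peaks covered 8444 bp in CK1750 with DMSO and 9390 bp with UNC0638, against 4212 bp in Tnm2 with DMSO and 2249 bp with UNC0638. The whole lists also differed in median peak width, which was 835, 1048, 831 and 1040.5 bp in the same order.

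**Figure D2:**
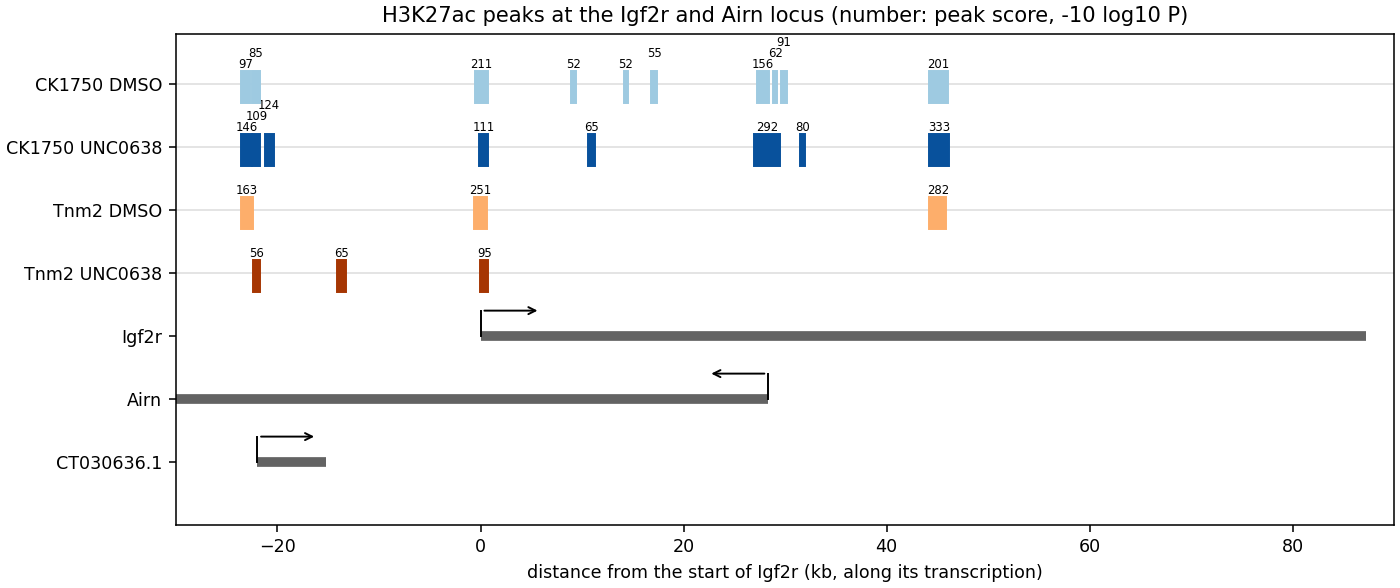
Map of the Igf2r and Airn locus: horizontal axis, distance from the main Igf2r start in kb along its transcription. Boxes are H3K27ac peaks of the 4 pooled lists drawn to scale with their rounded scores above, grey bars are genes and arrows their starts. All 4 lists have a box at 0, boxes at the Airn start (28.35 kb) are present in the 2 CK1750 lists and in neither Tnm2 list, and the box near 45 kb is missing in Tnm2 with UNC0638.

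Kcnq1ot1 is the paternally transcribed antisense RNA that starts inside an intron of the potassium channel gene Kcnq1 and silences genes on both sides. It spans chr7:143203458-143296549 on the minus strand, with 1 annotated start at chr7:143296549. In CK1750 with DMSO a peak lay at chr7:143295825-143296529 (705 bp, score 177.37, above 53.9% of its list), 0.02 kb inside the start. In CK1750 with UNC0638 it lay over the start at chr7:143296052-143296588 (537 bp) with a score of 55.38, above 5.63% of its list and close to the cutoff of 50. In Tnm2 with DMSO the start lay under the widest of these peaks, at chr7:143295203-143297181 (1979 bp, score 391.5, above 77.3% of its list). In Tnm2 with UNC0638 no peak lay near it, and the nearest in the list was 177 kb away.

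Kcnq1ot1 was thus marked in CK1750 with either treatment, and in Tnm2 with DMSO and not with UNC0638. Among all genes with a DMSO promoter peak, 5.51% had none with UNC0638 in CK1750 (0 of 2 of the imprinted genes) and 18.8% had none in Tnm2 (1 of 3). Of genes without a DMSO promoter peak, 2.49% had one with UNC0638 in CK1750 (0 of 8 of the imprinted genes) and 0.900% had one in Tnm2 (0 of 7). With 3 genes or fewer at risk, these counts cannot be set apart from the shares over all genes. By its score, the Tnm2 DMSO peak at Kcnq1ot1 fell in the same decile as the Igf2r intronic peak, in which 5.03% had no UNC0638 counterpart, while 85.8% had none in the lowest decile of scores. The neighbourhood peaks of that decile at Snrpn (288.48), Mrpl23 (339.97) and upstream of Mest (367.87) had a counterpart. The lost peaks were singled out with their loss known, so the 5.03% does not measure how unusual it is. Tnm2 with DMSO had another peak in the neighbourhood, at chr7:143313695-143314209 (score 54.94), which was also absent with UNC0638.

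Snrpn encodes a small nuclear ribonucleoprotein of the splicing machinery, and with Snurf it is transcribed from a paternally active promoter that is part of the control region of its cluster. The gene spans chr7:59982495-60140219 on the minus strand with annotated starts at chr7:60140219 and chr7:60005111, and the Snurf start lies beside the latter. In Tnm2 with DMSO a peak covered the latter start at chr7:60003662-60005180 (1519 bp, score 288.48, above 70.6% of its list). In Tnm2 with UNC0638 a narrower peak lay 0.175 kb from it at chr7:60004242-60004936 (695 bp, score 79.75, above 30.5% of its list). In CK1750 the nearest peaks to this start were 239 kb away with DMSO and 238 kb with UNC0638. No peak lay closer than 103 kb to the upstream start in any list. Snrpn was therefore marked in Tnm2 and not in CK1750, a pattern shared by 215 of 30751 genes (0.699%) over both treatments. Snrpn was singled out among the members by this pattern, so the share does not measure how unusual it is.

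**Figure D3:**
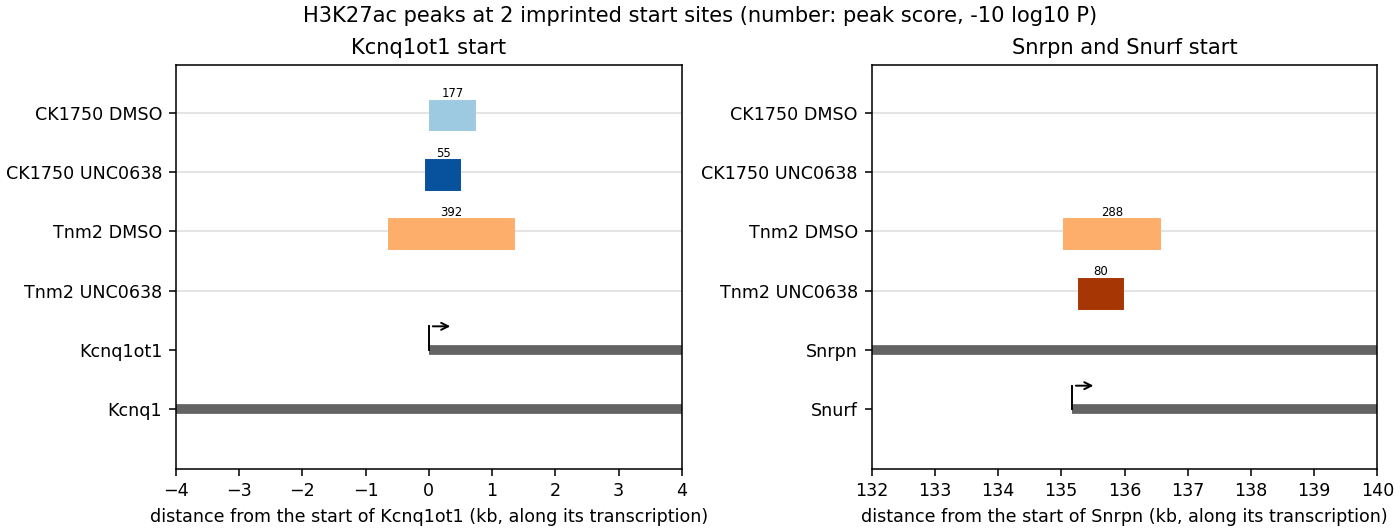
H3K27ac peaks around the starts of Kcnq1ot1 (left) and of Snrpn and Snurf (right), with distance in kb from the most upstream start of Kcnq1ot1 or Snrpn along transcription on the horizontal axis. Boxes are peaks of the 4 pooled lists with rounded scores above, grey bars genes and arrows starts. The box at Kcnq1ot1 is absent in Tnm2 with UNC0638 (scores 177, 55 and 392 in the others), and the boxes at Snrpn are present in the Tnm2 lists only (scores 288 and 80).

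H19, a maternally transcribed non-coding RNA, and Igf2, a paternally transcribed growth factor, share enhancers and a control region bound by CTCF. Neither carried a promoter peak. The only peak in the H19 neighbourhood was the promoter peak of Mrpl23, a mitochondrial ribosomal protein gene outside the imprinted domain. It was present in every list, with scores of 718.28 (DMSO) and 449.43 (UNC0638) in CK1750 and of 339.97 (DMSO) and 126.14 (UNC0638) in Tnm2. The nearest peak lay 42.0 and 41.7 kb from an H19 start in CK1750 and 42.7 and 42.5 kb in Tnm2, again with DMSO first. No peak lay in the Igf2 neighbourhood, and the nearest was 118 kb away in both CK1750 lists and 119 kb in both Tnm2 lists.

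Mest, Plagl1 and Peg3 are paternally transcribed and encode a hydrolase-like protein and 2 zinc finger proteins. None had a peak within the gene or closer than 29.4 kb to a start in any list. At Mest, every list held the promoter peak of the neighbour Cep41, a centrosomal protein gene, with scores of 444.86 and 652.32 in CK1750 and 480.91 and 166.4 in Tnm2 (DMSO, then UNC0638). Tnm2 had a further peak upstream in both treatments, at chr6:30686344-30688368 with DMSO (score 367.87) and at chr6:30687434-30688384 with UNC0638 (score 117.34), where CK1750 had none. The nearest peak to Plagl1 was 51.5 and 51.4 kb away in CK1750 and 51.7 and 75.7 kb in Tnm2. Peg3 stood farthest from the mark in both lines with DMSO, at 339 kb in each, and lay 339 kb from it in CK1750 with UNC0638 and 441 kb in Tnm2 with UNC0638.

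Meg3 is a maternally transcribed non-coding RNA of the Dlk1 cluster, and Grb10 is an adaptor that restrains signalling from the insulin and IGF1 receptors. Neither had a promoter peak, and few peaks lay nearby. CK1750 with DMSO had 1 peak 19.1 kb from a Meg3 start, at chr12:109521445-109521866 (422 bp, score 60.96), which had no counterpart with UNC0638. The nearest peaks to Meg3 were then 250 kb (CK1750, UNC0638), 90.7 kb (Tnm2, DMSO) and 538 kb away (Tnm2, UNC0638). Meg3 thus had no neighbourhood peak in the 3 other lists. Around Grb10, CK1750 with DMSO had 1 peak at chr11:12072694-12073103 (score 51.17), and CK1750 with UNC0638 had none. Tnm2 with DMSO had intronic peaks at chr11:11934844-11935262 (score 53.37) and chr11:11960936-11961530 (score 64.58), neither of which was found with UNC0638. The former lay 3.35 kb from a Grb10 start, the closest of the peaks outside the 2.5 kb window.

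The promoter of Ddc, the imprinted aromatic amino acid decarboxylase gene beside Grb10, was marked in Tnm2, by a highest score of 151.46 under DMSO and 50.37 under UNC0638, the latter above 0.537% of its list. The Ddc promoter had no peak in CK1750. The Tnm2 peaks with these scores are also counted in the Grb10 neighbourhood.

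**Figure D4:**
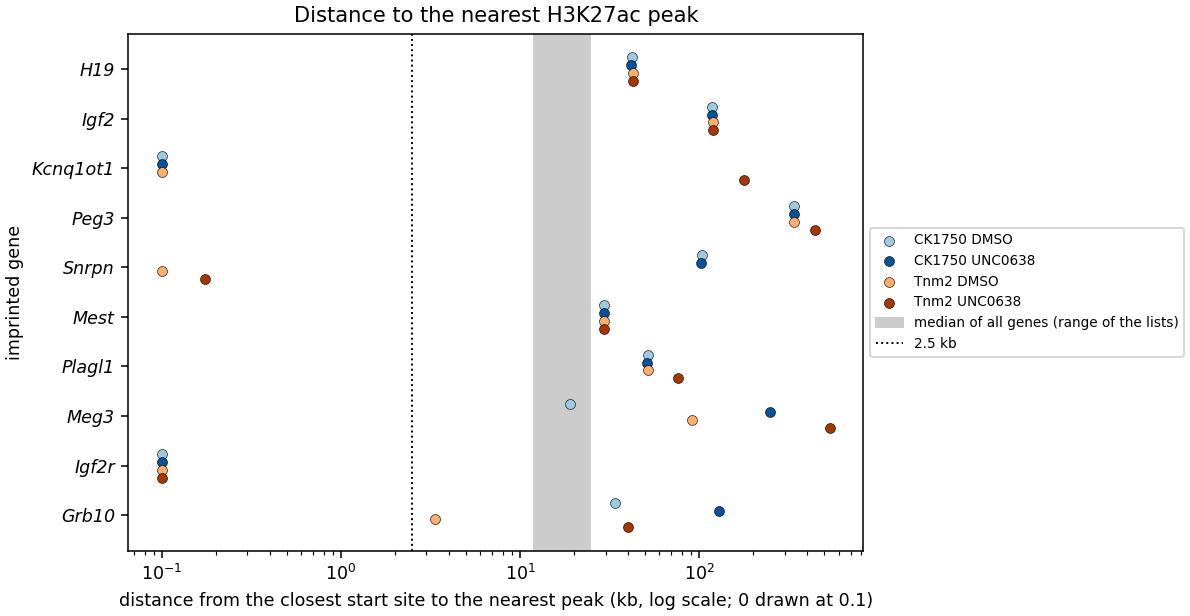
Distance from the closest annotated start of each imprinted gene to the nearest H3K27ac peak (kb, log axis, with distances of 0 drawn at 0.1), 1 point per gene and pooled list. The grey band spans the medians of all genes in the 4 lists (11.9 to 24.5 kb) and the dotted line marks 2.5 kb. H19, Igf2, Peg3, Mest and Plagl1 lie beyond the band in every list. The band holds medians, so many genes lie beyond it. The share of all genes as far or farther was 40.0% to 47.5% for Mest and 35.4% to 42.3% for H19. It was 33.0% to 34.9% for Plagl1, 22.0% to 26.7% for Igf2 and 10.7% to 12.1% for Peg3.

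With any peak within 50 kb of the gene counted, CK1750 had one at 6 of the 10 genes with DMSO and at 4 with UNC0638, beside 68.5% and 66.9% of all genes. Tnm2 had one at 6 genes with DMSO and at 5 with UNC0638, beside 68.8% and 62.6% of all genes. The neighbourhoods held 15 and 11 distinct peaks in CK1750 and 12 and 8 in Tnm2. In CK1750, 6 of 15 DMSO peaks were lost, that is, overlapped by no UNC0638 peak, and 3 of 11 UNC0638 peaks were gained. This balance turned with 2 lists of equal length (2 lost and 3 gained) and with scores of at least 100 (1 lost and 3 gained). With a peak within 1 kb also counted as shared, 5 were lost and 2 gained. The lost peak at chr17:12739504-12740042, for instance, lay just beside the UNC0638 peak at chr17:12740210-12742714. All 6 lost peaks, of which 4 lay in Igf2r, 1 near Meg3 and 1 near Grb10, had scores between 51.17 and 90.68. Of all CK1750 peaks 21.8% were lost and 19.6% gained, and in the lowest decile of DMSO scores (50.02 to 56.48), which held 4 of the 6, 62.0% were lost. In Tnm2, 5 of 12 peaks were lost, 2 at Kcnq1ot1, 1 in Igf2r and 2 in Grb10, and 1 of 8 was gained, at chr17:12782931-12783804 upstream of Igf2r (score 65.21). Of all Tnm2 peaks 43.1% were lost and 8.81% gained, so the count at the imprinted genes was near that of the list.

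The wider clusters were described by 39 further genes that belong to the clusters of the 10. In each line a promoter peak was found at 15 of them with DMSO and at 13 with UNC0638. Among all genes the share was 40.9% and 40.1% in CK1750 and 40.7% and 33.6% in Tnm2, so these counts were near it. Of the 39, 10 had one in every list, 21 in none and 8 in some. Of the 10 in every list, Nap1l4 (a nucleosome assembly protein), Tspan32 and Cd81 (tetraspanins) and Osbpl5 (an oxysterol-binding protein) belong to the Kcnq1ot1 cluster. Ube3a (a ubiquitin ligase), Mkrn3 (a ring finger protein), Peg12 and Atp10a (a phospholipid flippase) belong to the Snrpn cluster. The others were Copg2 (a coatomer subunit) of the Mest cluster and Cobl (an actin nucleator) of the Grb10 cluster. Only Copg2 lay within 50 kb of a member.

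Within the Snrpn cluster the genes differed widely in rank. Ube3a had promoter scores of 3100 (DMSO) and 2931.2 (UNC0638) in CK1750 and of 2469.02 (DMSO) and 1275.29 (UNC0638) in Tnm2. Mkrn3 had 70.69 and 100.63 in CK1750 and 133.08 and 57.22 in Tnm2, with DMSO first. Peg12 had 145.75 and 58.53 in CK1750 and 150.74 and 52.83 in Tnm2. Snurf carried the Snrpn peak in Tnm2 and none in CK1750, so CK1750 had peaks at Mkrn3 and Peg12 without one at the Snrpn start.

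Among the 8 genes marked in some lists, Mirg, a non-coding RNA that hosts microRNAs downstream of Meg3, had a promoter peak with DMSO in CK1750 (score 105.19) and in Tnm2 (score 111.28) and none with UNC0638 in either line. Dlk1, a transmembrane protein of the same cluster, had one in Tnm2 with DMSO only (score 60.65). Phlda2, a growth-restraining gene of the Kcnq1ot1 cluster, had one in CK1750 with DMSO only (score 72.09). Tssc4 had one in the lists other than Tnm2 with UNC0638 (scores 241.93, 228.38 and 182.85). Slc22a18, a transporter, had one in CK1750 with DMSO (score 67.06) and UNC0638 (score 53.84) and in Tnm2 with UNC0638 (score 59.12). Airn, Ddc and Snurf were the other 3. With UNC0638, 2 of the 15 genes marked in CK1750 (Phlda2 and Mirg) and 3 of the 15 marked in Tnm2 (Tssc4, Dlk1 and Mirg) lost the promoter peak, 0 gained one in CK1750 and 1 gained one in Tnm2 (Slc22a18). The shares over all genes given above were 5.51% lost and 2.49% gained in CK1750 and 18.8% lost and 0.900% gained in Tnm2, so the Tnm2 loss was near that of all genes. The CK1750 loss (2 of 15) and the Tnm2 gain (1 gene) lay above these shares. Both rest on too few genes to be set apart from them. Genes within 50 kb of the members that had no promoter peak in any list included Ins2, Kcnq1, Usp29, Zim1, Rtl1 and Rian.

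At imprinted loci elsewhere, 14 and 12 of 23 genes had a promoter peak in CK1750 and 13 and 10 in Tnm2 (DMSO, then UNC0638). Among all genes the share was 40.9% and 40.1% in CK1750 and 40.7% and 33.6% in Tnm2. These counts lay above it, a difference that was not tested. Of the 23, 10 had one in every list, 8 in none and 5 in some. Peg10 and Sgce, which share a bidirectional promoter, had 1 peak in CK1750 with DMSO only (score 69.7). Nespas, an antisense RNA of the Gnas locus, had one in Tnm2 with DMSO only (score 191.43). Rasgrf1, a guanine nucleotide exchange factor, had one in the lists other than Tnm2 with UNC0638 (scores 195.26, 185.33 and 109.02), as did Trappc9, a subunit of a trafficking complex (scores 183.78, 210.23 and 94.51). In CK1750 2 of 14 genes (Peg10 and Sgce, through 1 shared peak) had lost the promoter peak with UNC0638, beside 5.51% of all genes, and in Tnm2 3 of 13 had, near the 18.8% of all genes. Of the 23 genes 0 gained one in either line, where gains over all genes were also few (2.49% and 0.900%).

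CpG content was then set beside the peaks, since CpG-rich promoters carry H3K27ac more often than others. RefSeq windows were matched for 9 of the 10 genes, all but H19, and gave 19 windows, several of them alternative starts of 1 gene. The ratio of observed to expected CpG had a median of 0.46 in the 19 windows and of 0.38 in all 32851 RefSeq windows. It was at least 0.6 in 7 of the 19, from 6 genes (Igf2, Mest, Plagl1, Meg3, Igf2r and Grb10). A window was counted as under a peak at an overlap of at least 1 bp, so a peak may cover only part of it. In each list 1 of these 7 windows, that of Igf2r (ratio 0.91), lay under a peak. Of the 11765 RefSeq windows with such a ratio, 71.9% (DMSO) and 72.1% (UNC0638) lay under a peak in CK1750, and 68.2% (DMSO) and 58.6% (UNC0638) in Tnm2, a background that was chosen after the data had been seen. The Grb10 window printed above had a ratio of 0.97, and an Igf2 window one of 0.90, and neither lay under a peak. The Kcnq1ot1 window had a ratio of 0.42 and lay under a peak in 3 lists, and the Snrpn window, at 0.57, did so in Tnm2 with DMSO. The Kcnq1ot1 peaks of both CK1750 lists and this Snrpn peak ended inside the window and covered only part of it. So did the Igf2r peaks with UNC0638 in both lines.

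**Figure D5:**
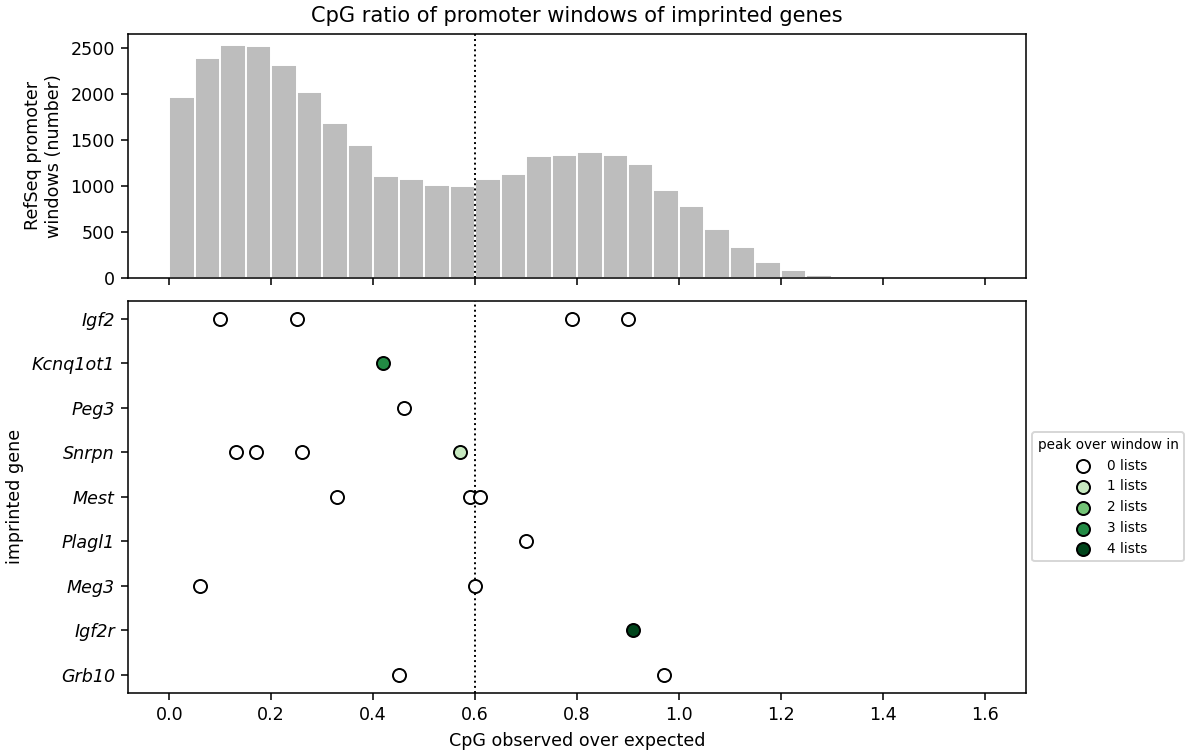
Ratio of observed to expected CpG in promoter windows. The upper panel counts all RefSeq windows by ratio. The lower panel shows the 19 windows of 9 imprinted genes, filled by the number of lists with a peak that overlaps the window by at least 1 bp. At ratios of at least 0.6 (dotted line) the window of Igf2r is filled and 6 windows are empty, while those of Kcnq1ot1 (0.42) and Snrpn (0.57) are filled below it.

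The letters TGCCGC, the hexamer bound by Zfp57 in methylated form at imprinted control regions, were searched on both strands. They occurred in 7 of the 19 windows, among them the Snrpn, Grb10 and Plagl1 windows printed above, and in 11.6% of all RefSeq windows (24.3% of those with a CpG ratio of at least 0.6). Among the 7 are the Mest windows chr6:30737800-30738099 and chr6:30737803-30738102, which overlap almost fully and so do not count separately. The letters GGNGGCAG, from the core of the CTCF motif, occurred in 2 of the 19 windows, 1 of Igf2 and 1 of Grb10, and in 12.6% of all windows (16.7% of the CpG-rich ones). Of the windows with the hexamer, only that of Snrpn was overlapped by a peak, in Tnm2 with DMSO. That peak ended inside the window, at chr7:60005180, and the hexamer lay upstream of this end, outside the peak.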

How the data were processed

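H3K27ac ChIP-seq was done by the authors in CK1750 and Tnm2 cells with DMSO or 1 µM UNC0638. By the methods of the study, bowtie2 aligned the reads to mm10, and MACS 1.4.2 called the peaks with 1e-05 as the limit on P. The deposited lists give each peak's position and a score, minus 10 times the log10 of P as the authors' caller wrote it, so lists end at 50. Samples were grouped by line, treatment and mark from the labels, which tie each group to 1 merged list. Which libraries entered it, and whether input DNA was the control, is not given in the sources used here. Depth is unknown, a score grows with depth, and a weak peak can cross the cutoff through a small change in signal.

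Positions were made 1-based, and 0 peaks ended beyond a chromosome of GRCm38. Start sites came from GENCODE M21. Peaks were shared at an overlap of at least 1 bp, and lost or gained otherwise. Backgrounds are shares over all 30751 genes of the members' classes, or over all peaks. Promoter windows are RefSeq's (GRCm38.p6). All 10 members are named, with cluster genes marked in at least 1 list or within 50 kb of a member, and genes of other imprinted loci marked in some lists. Members and lists were chosen with earlier results of these data known. No test between groups was made, since each has 1 list. Alternatives were a stricter score, equal numbers of the highest-scoring peaks, other windows, other overlap rules and merged neighbours. The overlap code was tested on simulated lists, where 3000 of 3000 lost peaks were recovered. Python 3.11.15, numpy 2.4.6 and pandas 2.3.3 were used.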

Additional observations from a re-analysis of the deposited data

Results flagged for a closer look

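The length covered by H3K27ac peaks within 50 kb of Igf2r moved in opposite directions in the lines. With UNC0638 it was 946 bp more than with DMSO in CK1750 (9390 against 8444 bp), and the change was -1963 bp in Tnm2 (2249 against 4212 bp). Over the whole lists, median peak width rose with UNC0638, from 835 to 1048 bp in CK1750 and from 831 to 1040.5 bp in Tnm2. The number of peaks fell from 27367 to 24601 in CK1750 and from 30641 to 18794 in Tnm2. A change particular to Igf2r cannot be told apart from these. Each value rests on 1 pooled list, and the difference between the lines was not tested.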

How the results depend on the processing

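Of 132 values for 28 counts under other settings, 104 stayed within 1.5 times the count given and 28 did not. With scores of at least 100, promoter peaks remained at 1 gene in CK1750 with UNC0638 (1 peak at Igf2r) and at 0 genes in Tnm2 with UNC0638 (0 peaks), so the lost promoter peaks became 1 in CK1750 and 3 in Tnm2. The loss over all genes at this cutoff was not computed, so these counts have no background. The neighbourhood peaks became 6 in CK1750 with DMSO and 3 in Tnm2 with UNC0638 (2 genes), the lost ones 1 in CK1750 (3 gained), the gained ones 0 in Tnm2, and of the 39 cluster genes and 23 genes elsewhere together 15 were marked in Tnm2 with UNC0638, against 23 with all peaks. With the 2 lists of a line trimmed to the same length by score, neighbourhood losses were 2 in each line, with 3 gained in CK1750, so that there gains exceeded losses under both settings, the reverse of the 6 and 3 with all peaks, and the same genes kept promoter peaks in every list. Start windows of 5 kb added Grb10 in Tnm2 with DMSO (5 promoter peaks in all, 2 genes lost). Gene windows of 10 kb left 2 genes in both CK1750 lists (9 and 6 peaks) and in Tnm2 with UNC0638 (2 peaks), 6 peaks in Tnm2 with DMSO and 0 gained. Windows of 100 kb gave 18 peaks in CK1750 with UNC0638 and 9 lost in Tnm2. A reciprocal overlap of 50% gave 8 lost and 4 gained in Tnm2. Which genes had promoter peaks was unchanged with start windows of 1 kb and with neighbouring peaks merged. No replicate could be left out, since each group has 1 pooled list. No paired analysis was possible because the lists are pooled over the samples of a group. Unknown depth limits every absent peak: it was not called, which is not the same as absence of the mark.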
